A study of Mus musculus with 33 samples.

Results

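The 36 mitosis genes are protein-coding genes known to drive, check or carry out M phase, or to mark dividing cells. They were named by symbol among the 26621 gene symbols of the count tables, by a rule that uses no measured value, although earlier results of these data were known when the list was drawn up. Every one of the 36 was present and passed the low-count filter in all 3 assays of the series. By role they comprise a chromosome group with a proliferation mark (Mki67, Top2a, Ncapg), CDK1 and its cyclins (Cdk1, Ccna2, Ccnb1, Ccnb2) and mitotic kinases with an activator (Plk1, Aurka, Tpx2). Next come the chromosomal passenger complex (Aurkb, Birc5, Cdca8), the spindle checkpoint (Bub1, Bub1b, Mad2l1, Ttk) and protein degradation (Cdc20, Ube2c, Cdca3). Centromere and kinetochore genes (Cenpa, Cenpe, Cenpf, Ndc80, Nuf2, Spc25), spindle motors and microtubule binders (Kif11, Kif2c, Nusap1, Hmmr, Dlgap5) and midzone and cytokinesis genes (Kif20a, Kif23, Prc1, Ect2, Anln) complete the set.

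Cells about to divide raise these transcripts together in late S phase and G2, and some of the proteins are removed by ubiquitin-dependent degradation as mitosis ends. The summed RNA of such genes is widely used as a reading of how many cells of a culture are cycling. Neural stem cells of the hippocampus divide in culture while growth factors are present. YTHDF2 is a cytoplasmic protein that binds RNA carrying N6-methyladenosine (m6A) and recruits the machinery that shortens and degrades it.

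RNA came from neural stem cells of the hippocampus of mice at postnatal day 0.5, grown in plates with FGF and EGF. The RNA-seq cells were labelled Nestin-cKO, a conditional knockout of Ythdf2, or Nestin-WT. They were sampled at 0, 2 and 4 h of actinomycin D (5 µM), a transcription inhibitor, with 3 libraries per genotype and time, 18 in all. The name points to a Nestin driver, active in neural stem and progenitor cells, and the labels do not say how recombination was checked. Untreated Nestin-WT cells also gave 3 m6A antibody pull-downs with 3 inputs, and 3 pull-downs each with YTHDF2 antibody and IgG beside 3 inputs of their own. Replicates of a genotype carry a number from 1 to 3, called a culture here. The labels do not say whether cultures came from separate animals, so p-values measure only the spread between these libraries, which may be technical.

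Libraries held between 10257329 and 21353383 counts in RNA-seq, between 12892222 and 28334300 with the m6A antibody or its input, and between 8419106 and 23097887 in the YTHDF2 series. Ythdf2 itself went against the genotype label: at 0 h it had 3117, 1035 and 736 normalized CPM (counts scaled to library size) in cKO-labelled cultures 1, 2 and 3, against 219, 253 and 258 in WT cultures 1, 2 and 3. Genotypes are therefore given as labelled throughout, and gene counts do not show which exons are present. Of 10 neural stem cell markers, 8 averaged above 1 CPM in cKO-labelled libraries and 9 in WT libraries at 0 h, and Msi1 was near 0 in both (0.0265 CPM in cKO-labelled and 0.0449 CPM in WT libraries). In the YTHDF2 series, what the title of a sample calls input its description calls YTHDF2, and the reverse. The names in the descriptions, which are those of the count columns, were used. Mitochondrial transcripts took 0.690% to 0.823% of counts in YTHDF2 pull-downs, 0.823% to 1.11% in IgG pull-downs and 2.60% to 3.40% in the inputs so named, beside 2.76% to 3.10% in the m6A inputs.

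The share of all counts on the 36 genes was 0.493%, 0.477% and 0.192% in cKO-labelled cultures 1, 2 and 3 at 0 h, against 0.894%, 0.706% and 0.809% in WT cultures. Every cKO-labelled culture lay below every WT culture, and culture 3 was far below the other two. In the YTHDF2 series the share differed by replicate in each arm: replicates 1, 2 and 3 had 0.231%, 0.361% and 0.524% in YTHDF2 pull-downs, 0.268%, 0.451% and 0.609% in IgG pull-downs, and 0.170%, 0.236% and 0.322% in inputs.

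**Figure D1:**
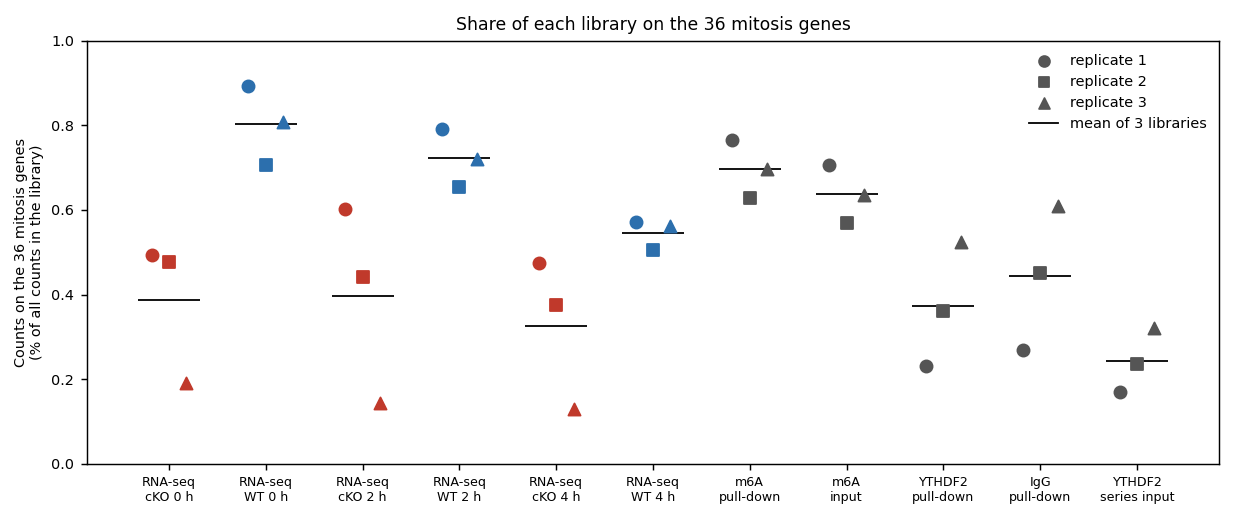
Share of each library's counts on the 36 mitosis genes, in percent, with each library as a point (shape for replicate number) and a line for the mean of 3. The cKO-labelled culture 3 is lowest at each time (0.192%, 0.143% and 0.129% at 0, 2 and 4 h), and replicate 3 is highest in each arm of the YTHDF2 series.

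Levels were ordered within WT cells at 0 h by TPM, a share of transcripts that corrects for their length. Ccnb1, the cyclin that activates CDK1 at mitotic entry, was the most abundant at 619 ± 73.4 TPM (SD, n = 3). Prc1, which bundles midzone microtubules, had 439 ± 53.6 TPM and Top2a, the topoisomerase that untangles sister DNA, 397 ± 51.7 TPM. Plk1, a kinase of mitotic entry and spindle assembly, was the least abundant at 7.97 ± 3.82 TPM. Of the 35 pairs of neighbours in this order, 32 overlapped between cultures. Only Ccnb1 over Prc1, Top2a over Cdk1 and Anln over Plk1 did not. The order is that of these libraries. In m6A inputs 1, 2 and 3, also of WT cells, Plk1 had 48.2, 38.5 and 45.8 TPM, above Anln (32.7, 25.2 and 29.1). Top2a had 582, 480 and 518 TPM there, above Ccnb1 (397, 330 and 362) and still above Cdk1 (194, 157 and 172).

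The genotype comparison at 0 h asked whether these transcripts differed before transcription was blocked. Of the 36 genes, 5 were lower in the libraries labelled cKO and none was higher, after adjustment over all 14029 genes tested. Over all genes, 9.89% were called lower and 7.71% higher, so 5 of 36 (13.9%) is near the background. The direction was more uniform than the calls: 35 of 36 log2 differences were negative, with a median of −1.11, beside −0.0053 over all genes. The groups did not overlap, cKO below WT, for 24 of 36 genes (66.7%), beside 24% of all genes. At an unadjusted p under 0.05 there were 17 genes, and the share of all genes at that threshold is not given here or below. In these bulk cultures, fewer cells in mitosis and less RNA per cell cannot be told apart.

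The 5 called genes came from the kinase, checkpoint, spindle and midzone groups. Kif2c, a kinesin that takes apart microtubules at centromeres, had 15.98, 39.2 and 18.2 CPM in cKO-labelled cultures 1, 2 and 3, against 118, 83.2 and 94.4 CPM in WT cultures (log2 difference −2.01, SE 0.52, adjusted p = 0.0165). Ttk, the checkpoint kinase also called Mps1, had 32.05, 36.3 and 13.1 CPM in cKO-labelled and 99.9, 73.8 and 94.9 CPM in WT cultures (log2 difference −1.72, SE 0.46, adjusted p = 0.0196). Aurka, the kinase of centrosomes and spindle poles, had 43.1, 91.4 and 32.4 CPM against 202, 155 and 192 CPM in WT (log2 difference −1.72, SE 0.49, adjusted p = 0.0261). For all 3 genes the groups were apart, and the low value of Kif2c in culture 1 was below that of culture 3. Kif23, the centralspindlin motor of the midzone, had 33.04, 50.1 and 19.9 CPM in cKO-labelled and 101, 80.3 and 102 CPM in WT cultures (log2 difference −1.46, SE 0.45, adjusted p = 0.0341). Kif20a, a midzone kinesin that carries the passenger complex, had 66.9, 129 and 44.5 CPM in cKO-labelled and 286, 244 and 272 CPM in WT cultures (log2 difference −1.74, SE 0.57, adjusted p = 0.0433). These 5 calls are fragile: without any 1 of the 3 WT cultures, in all its times, none of the 36 genes was called. Without cKO-labelled culture 1 or 3 there were 17 and 20 called, all lower, and without culture 2 there were 5. The share of all genes called is not given for fits with cultures or libraries left out, here or below. Their counts show how far the calls move and cannot be set against the shares of the full fit. Leaving out only the 0 h library of WT culture 1, 2 or 3 left 0, 2 and 1 called, and leaving out that of cKO-labelled culture 3 left 0.

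**Figure D2:**
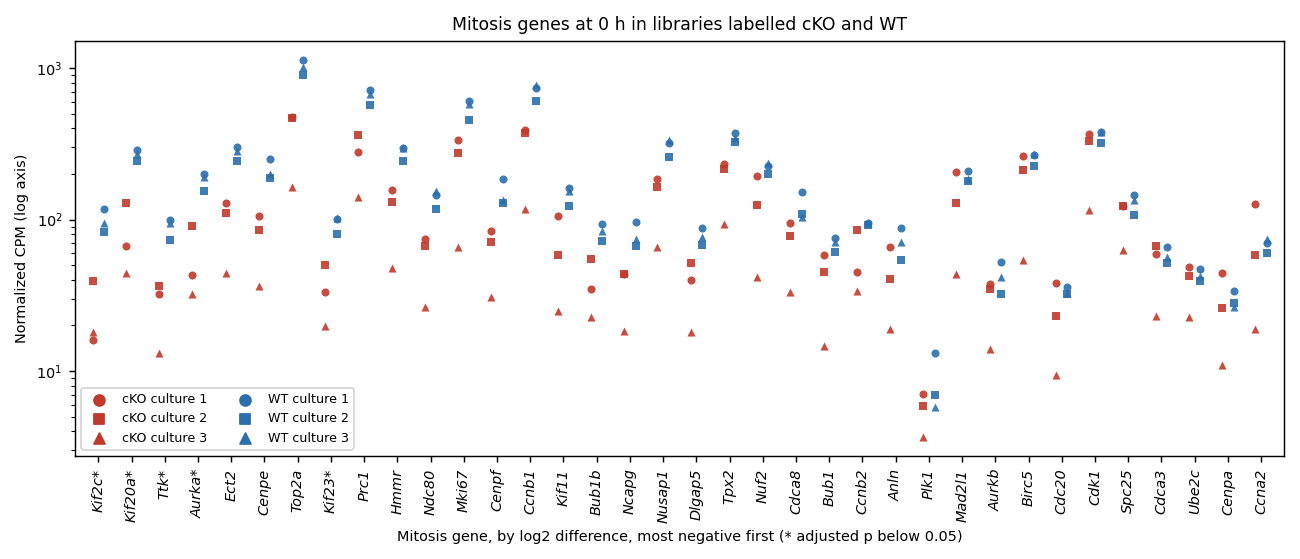
Normalized CPM (log axis) of each mitosis gene at 0 h in the 3 libraries labelled cKO (red, left) and the 3 labelled WT (blue, right), in order of the log2 difference. Culture 3 labelled cKO (red triangle) is the lowest of its group for 35 of 36 genes, and an asterisk marks the 5 genes called lower.

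Promoters are shown for 3 of the called genes because late cell cycle genes are known for a pair of promoter elements, the cell cycle homology region (CHR, searched as TTTGAA) and the CCAAT box (searched as CCAAT), to which the DREAM and MYB-containing complexes and NF-Y bind. RefSeq promoter windows of 300 bases, 250 before to 50 after the start (GRCm38.p6), were at hand for 31 of the 36 genes, which leaves out Aurkb, Ccna2, Dlgap5, Kif20a and Tpx2. Both strands were searched, and a match of 1 motif could overlap the other. Capitals mark CHR matches (TTTGAA or TTCAAA) and CCAAT matches (CCAAT or ATTGG) in the windows of Ttk (chr9:83834439-83834738, plus strand), Aurka (chr2:172370521-172370820, minus strand) and Kif23 (chr9:61946750-61947049, minus strand).
Ttk: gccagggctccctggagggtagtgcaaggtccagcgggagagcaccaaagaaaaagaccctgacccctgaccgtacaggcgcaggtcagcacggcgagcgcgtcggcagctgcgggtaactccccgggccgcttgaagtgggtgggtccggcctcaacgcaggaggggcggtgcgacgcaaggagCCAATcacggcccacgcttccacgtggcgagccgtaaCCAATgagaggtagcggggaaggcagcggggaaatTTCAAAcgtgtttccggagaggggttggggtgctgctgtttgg
Aurka: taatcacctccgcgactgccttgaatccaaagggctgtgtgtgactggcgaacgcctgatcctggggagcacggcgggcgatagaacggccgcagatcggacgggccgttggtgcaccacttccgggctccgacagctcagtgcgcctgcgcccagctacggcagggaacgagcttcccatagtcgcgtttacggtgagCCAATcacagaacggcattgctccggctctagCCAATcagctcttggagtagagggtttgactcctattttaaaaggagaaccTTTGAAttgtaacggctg
Kif23: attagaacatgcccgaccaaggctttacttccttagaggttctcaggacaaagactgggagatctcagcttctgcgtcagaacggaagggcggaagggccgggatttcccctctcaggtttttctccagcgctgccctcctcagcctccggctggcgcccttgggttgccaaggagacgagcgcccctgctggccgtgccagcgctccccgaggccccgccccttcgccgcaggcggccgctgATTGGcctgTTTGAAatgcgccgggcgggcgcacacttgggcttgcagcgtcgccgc
Each of these windows held 1 CHR match, and Ttk and Aurka held 2 CCAAT matches and Kif23 1. The start used for Aurka lies 316 bases inside the gene's annotated span and that of Kif2c 3852 bases inside, so the Kif2c window is counted below but not shown. The start for Cdca3 lies 646 bases inside and those for Ect2 399 and 375, and these windows are counted too. Of the 31 genes with a window, 24 (77.4%) held a CHR match, beside 17.9% of all 32851 windows. A CCAAT match was in 24 of 31 (77.4%), beside 37.4% of all windows. Both were in 21 of 31 (67.7%), beside 6.95% of all. A match describes letters only. Birc5, Mad2l1, Nuf2 and Nusap1 had neither within these windows.

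By role, the midzone and cytokinesis genes had the most negative median at 0 h, −1.46 log2 with 2 of 5 called lower. Ect2, the exchange factor that activates RhoA for the cleavage furrow, had 128, 110.4 and 44.3 CPM in cKO-labelled cultures, against 303, 244 and 284 CPM in WT (log2 difference −1.56, SE 0.56, adjusted p = 0.0634). The chromosome group had a median of −1.28 and none of 3 called. Mki67, which coats mitotic chromosomes and is the usual mark of proliferating cells, had 337, 276 and 65.95 CPM in cKO-labelled cultures, against 610.5, 457 and 583 CPM in WT (log2 difference −1.28, SE 0.63, adjusted p = 0.155). Top2a had 479.9, 469 and 163 CPM in cKO-labelled and 1140.5, 904 and 1019.9 CPM in WT cultures (log2 difference −1.46, SE 0.60, adjusted p = 0.0936). Both sets of groups were apart, with no call. Spindle motors and microtubule binders had a median of −1.21 with 1 of 5 called, and the 6 centromere and kinetochore genes −1.08 with none called. In that set Cenpa, the histone variant that marks centromeres, differed least (−0.12, adjusted p = 0.847).

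CDK1 and its cyclins differed from each other, with a median of −0.59 and none of 4 called. Cdk1, the kinase that drives mitotic entry, had 366, 331 and 115 CPM in cKO-labelled cultures, against 379, 320.01 and 381 CPM in WT (log2 difference −0.41, SE 0.43, adjusted p = 0.518). Cultures 1 and 2 lay within the WT range and culture 3 far under it. Ccnb1 had 391, 376 and 118 CPM in cKO-labelled and 739, 608 and 779 CPM in WT cultures (log2 difference −1.26, SE 0.52, adjusted p = 0.0954). Ccna2, the cyclin of S phase and early mitosis, had 128, 58.03 and 19.04 CPM in cKO-labelled cultures, against 69.6, 60.7 and 74.4 CPM in WT. Culture 1 lay above every WT value and cultures 2 and 3 below, and the log2 difference was 0.00063 (adjusted p = 0.999). The kinase group had a median of −0.95 with 1 of 3 called, and in it Plk1 had 7.04, 5.86 and 3.66 CPM in cKO-labelled and 13.1, 6.99 and 5.75 CPM in WT cultures (log2 difference −0.64, SE 0.42, adjusted p = 0.29). The checkpoint genes had a median of −0.99 with 1 of 4 called, and the passenger complex −0.56 with none of 3 called. Protein degradation genes had the smallest median, −0.23, with none called: Ube2c, the ubiquitin-conjugating enzyme of the anaphase-promoting complex (APC/C), differed by −0.17 and Cdca3, a trigger of mitotic entry that works with a ubiquitin ligase, by −0.23, while Cdc20, the APC/C activator, differed by −0.52.

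The 3 cKO-labelled cultures did not share 1 level. Set against the WT mean at 0 h, the median over the 36 genes on the log2(CPM + 0.5) scale was −0.70 in culture 1, −0.79 in culture 2 and −2.19 in culture 3. Culture 3 was below all 3 WT cultures for 36 of 36 genes, culture 2 for 30 and culture 1 for 24, while 4 genes of culture 1 and 1 of culture 2 lay above all WT cultures. Summed CPM over the 36 genes was 0.615, 0.570 and 0.207 times the WT mean in cultures 1, 2 and 3. Culture 3 was the lowest of the 3 for 35 of 36 genes, the exception being Kif2c. The protein degradation genes had medians of 0.18, −0.01 and −1.31 in cultures 1, 2 and 3, and the midzone genes −1.21, −0.90 and −2.21.

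**Figure D3:**
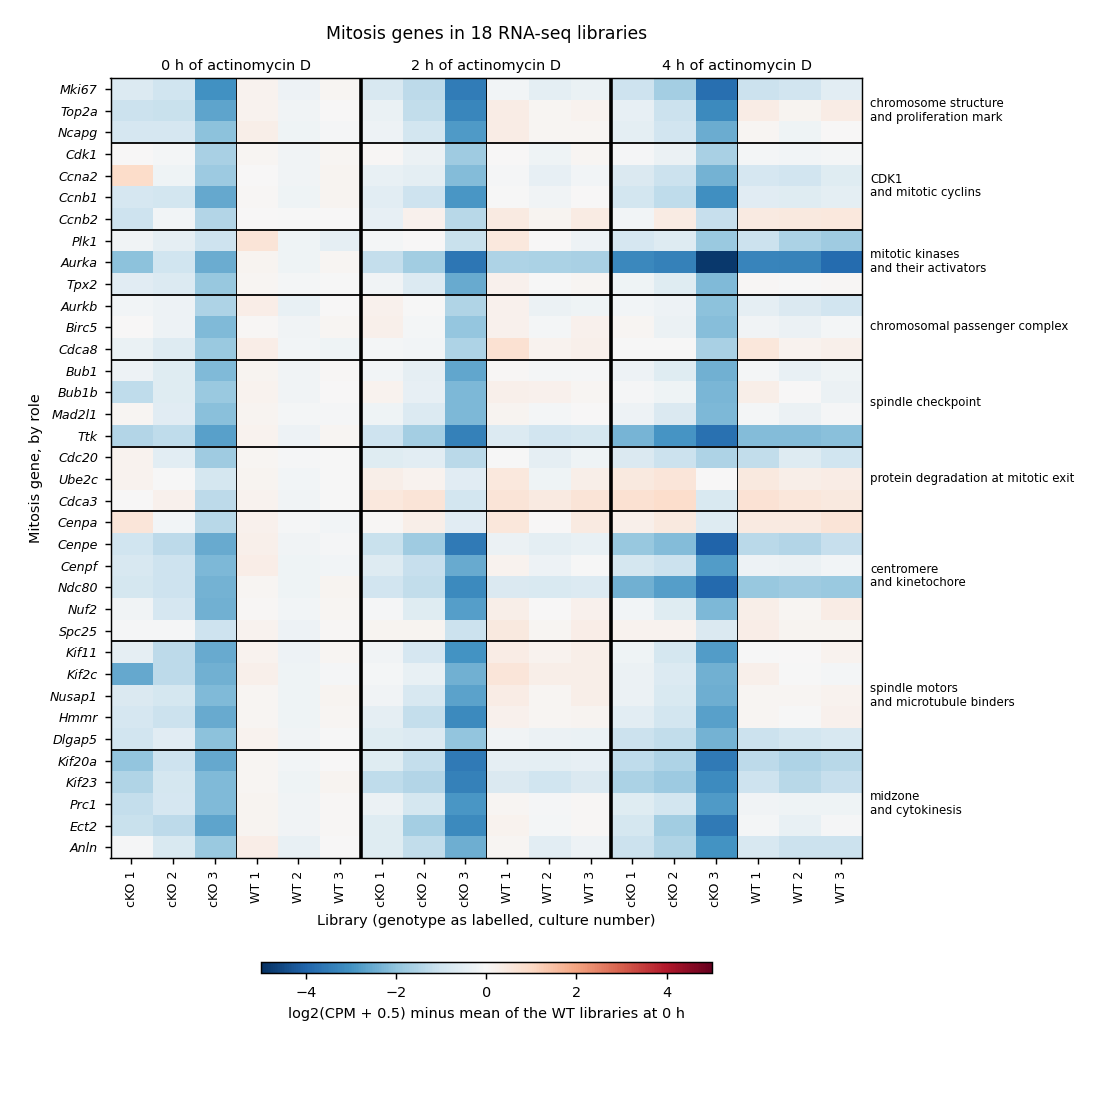
Colour shows log2(CPM + 0.5) minus the mean of the WT libraries at 0 h for the 36 mitosis genes (rows, by role) in 18 RNA-seq libraries (columns, by time, then cKO and WT as labelled, then culture). The cKO-labelled culture 3 is the bluest column at each time, and Aurka, Ttk and Ndc80, already blue at 0 h in the cKO-labelled columns, are blue in all 6 columns at 4 h.

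Other gene lists were read in the same cultures at 0 h. Their calls stand beside 9.89% of all genes called lower and 7.71% higher. On the same scale, 63 other mitosis genes had medians of −0.36, −0.54 and −1.71 in cKO-labelled cultures 1, 2 and 3. Of them 2 were called lower (Ccnf −1.23, Zwilch −1.49) and 1 higher (Pttg1 0.71), with a median of −0.78. The 26 genes of the G1/S transition and DNA replication had medians of −0.36, −0.32 and −1.80 in the 3 cultures and none was called. The 14 APC/C subunits stayed near WT (0.22, −0.10 and −0.27), with 1 called lower (Cdc23 −1.06). The 23 regulators of mitotic transcription had −0.11, −0.32 and −0.75, with 1 called lower (Lin52 −0.88). The p53 target list had 0.12, 0.03 and 0.80 in the 3 cultures, with 6 of 18 tested genes called higher and 1 lower. Its Cdkn1a, the CDK inhibitor p21, had 126, 176 and 315 CPM in cKO-labelled cultures, against 66.2, 52.5 and 62.0 CPM in WT. This gene was picked by name and does not stand for the list, whose medians were 0.12 and 0.03 in cultures 1 and 2.

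Markers of other cell types were read beside these values, with the same shares of all genes called, 9.89% lower and 7.71% higher. The fibroblast and meningeal list had medians of 1.08, 2.31 and 2.45 log2 in cKO-labelled cultures 1, 2 and 3 against the WT mean, with 8 of 12 tested genes called higher and 1 lower. Its summed level was 44.9 to 118 CPM in cKO-labelled and 172 to 251 CPM in WT libraries, and 10 of 14 markers averaged above 1 CPM in cKO-labelled and 2 of 14 in WT libraries. Tbx18 averaged 0.16 CPM in cKO-labelled libraries and 0 in WT. The neural stem cell list had −0.76, −0.57 and −0.53, with summed levels of 9222 to 12313 CPM in cKO-labelled and 14323 to 16776 CPM in WT libraries. Astrocyte markers summed to 903 to 1508 CPM in cKO-labelled and 1841 to 2691 CPM in WT libraries, oligodendrocyte lineage markers to 242 to 584 CPM in cKO-labelled and 379 to 446 CPM in WT libraries, and neuron markers to 44.3 to 63.8 CPM in cKO-labelled and 103 to 138 CPM in WT libraries. Microglia markers were near 0, at 1.75 to 3.90 CPM in cKO-labelled and 1.26 to 1.68 CPM in WT libraries. The part of the cell mixture in the mitosis gene values was not tested.

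Under actinomycin D the genotype difference kept its direction with no called gene. At 2 h none of the 36 genes was called, beside 8.54% called lower and 8.52% higher over all genes. All 36 log2 differences were negative (median −0.89, all genes 0.053), 11 had an unadjusted p under 0.05, and DESeq2 called 4. Neither count is given with a share of all genes. The groups did not overlap for 24 genes (66.7%), beside 20.9% of all genes. Cenpe, the kinetochore motor that carries chromosomes to the spindle equator, had 97.7, 60.5 and 17.6 CPM in cKO-labelled cultures, against 171, 149 and 164 CPM in WT (log2 difference −1.46, SE 0.51, adjusted p = 0.0583). Ect2 had 181, 84.2 and 30.3 CPM in cKO-labelled and 309, 255 and 287 CPM in WT cultures (log2 difference −1.52, SE 0.56, adjusted p = 0.0692). The cKO-labelled groups lay wholly below WT for both genes, with culture 3 lowest. Cenpf, a large kinetochore protein, had 95.4, 66.04 and 25.5 CPM in cKO-labelled and 169, 123 and 146 CPM in WT cultures (log2 difference −1.22, SE 0.46, adjusted p = 0.072). Hmmr, a spindle pole protein, had 205, 122 and 30.1 CPM in cKO-labelled and 323, 295 and 306 CPM in WT cultures (log2 difference −1.37, SE 0.54, adjusted p = 0.0877). Without cKO-labelled culture 1, 2 or 3, 18, 1 and 10 genes were called at 2 h, all lower, again with no share of all genes to set beside them.

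At 4 h again none of the 36 genes was called, beside 9.11% called lower and 11% higher over all genes. The median was −0.72 (all genes 0.084), 34 of 36 differences were negative, 7 had an unadjusted p under 0.05, and DESeq2 called 2. The counts by unadjusted p and DESeq2 again have no share of all genes beside them. The groups did not overlap, cKO below WT, for 19 genes (52.8%), beside 18.2% of all genes. Ect2 had 151, 82.4 and 23.3 CPM in cKO-labelled cultures, against 258, 215 and 263 CPM in WT (log2 difference −1.52, SE 0.56, adjusted p = 0.0638). Cenpf had 80.3, 69.9 and 20.9 CPM in cKO-labelled and 125, 120.3 and 134 CPM in WT cultures (log2 difference −1.15, SE 0.46, adjusted p = 0.0823). Culture 3 was again the lowest for both. Top2a had 766, 483 and 112 CPM in cKO-labelled and 1332, 1116 and 1305 CPM in WT cultures (log2 difference −1.46, SE 0.60, adjusted p = 0.0892). Ndc80, which gives the kinetochore its grip on microtubules, had 25.9, 20.3 and 8.89 CPM in cKO-labelled and 36.97, 40.1 and 38.3 CPM in WT cultures (log2 difference −1.06, SE 0.46, adjusted p = 0.106). The median against the WT mean of the same time was −0.70, −0.31 and −0.22 in culture 1 at 0, 2 and 4 h, −0.79, −0.67 and −0.55 in culture 2, and −2.19, −2.48 and −2.07 in culture 3. Without cKO-labelled culture 1 or 3, 14 and 10 genes were called at 4 h, all lower, and without culture 2 none was. These counts too have no share of all genes beside them.

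The time course in WT cells asked how long these transcripts last once synthesis is blocked. CPM are shares of the remaining RNA, so a transcript that decays as fast as the average shows no change. At 4 h against 0 h, 7 of 36 genes were lower and none higher, beside 24.2% called lower and 15.6% higher over all genes. The 7 (19.4%) do not exceed the background in this fit, which has no block. With culture as a block, 38.9% were lower, beside 29.1% of all genes. With no block the median was −0.18, beside 0.0049 over all genes. The range was wide, from −3.53 for Aurka to 0.60 for Cdca3.

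Aurka fell most. In WT cultures 1, 2 and 3 it had 202, 155 and 192 CPM at 0 h, 62.4, 60.5 and 58.4 at 2 h and 17.95, 17.6 and 12.1 at 4 h (log2 difference −3.53, SE 0.53, adjusted p = 5.86e-05). Ttk had 99.9, 73.8 and 94.9 CPM at 0 h, 55.2, 44.9 and 47.6 at 2 h and 19.1, 19.6 and 20.4 at 4 h (log2 difference −2.18, SE 0.47, adjusted p = 0.00138). Both were lower at each later time in every WT culture. Ndc80 had 146, 118 and 154 CPM at 0 h, 84.02, 81.6 and 86.9 at 2 h and 36.97, 40.1 and 38.3 at 4 h (log2 difference −1.86, SE 0.46, adjusted p = 0.00408). Plk1 had 13.1, 6.99 and 5.75 CPM at 0 h, 11.95, 8.20 and 6.65 at 2 h and 3.58, 2.39 and 2.00 at 4 h (log2 difference −1.69, SE 0.44, adjusted p = 0.00558), with nearly all of its fall after 2 h. Kif23 (−1.21), Cdc20 (−0.96) and Cenpe (−1.32) also fell by 4 h, with adjusted p of 0.0373, 0.0454 and 0.0487. Those 3 calls were lost with any WT culture left out, which left 3 or 4 genes called. The step to 2 h called Aurka alone (log2 difference −1.60, SE 0.49, adjusted p = 0.0313), beside 13.7% of all genes called lower and 3.63% higher, and Ttk had a log2 change of −0.86 with adjusted p = 0.203. The step after 2 h called Plk1 alone (log2 difference −1.74, SE 0.44, adjusted p = 0.0459), beside 2.31% of all genes called lower and 0.0356% higher, with Aurka next (log2 difference −1.93, SE 0.50, adjusted p = 0.0506). Both of these single calls were lost with any 1 WT culture left out. The 4 h libraries lay wholly below those at 2 h for 17 of 36 genes (47.2%), beside 18.5% of all genes. At 4 h against 0 h that share was 38.9%, beside 33.7%, and at 2 h against 0 h 19.4%, beside 29.6%.

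The other 29 members were not called at 4 h. Cdk1 had 379, 320.01 and 381 CPM at 0 h, 364, 308 and 383 at 2 h and 335, 325 and 333 at 4 h. Top2a had 1140.5, 904 and 1019.9 CPM at 0 h, 1302, 1079 and 1146 at 2 h and 1332, 1116 and 1305 at 4 h. Neither was called. Ccnb1 had 739, 608 and 779 CPM at 0 h, 696, 620.1 and 718 at 2 h and 479, 458 and 498 at 4 h, and Mki67 had 610.5, 457 and 583 CPM at 0 h, 499, 393 and 429.7 at 2 h and 257, 279 and 375 at 4 h. These 2 were lower at 4 h in every WT culture without passing the test in the fit with no block. The replicate numbers pair libraries across times within a genotype, and a fit with the culture as a block called 18 members at 4 h against 0 h, 14 lower (38.9%) and 4 higher (11.1%), beside 29.1% of all genes lower and 23.8% higher in that fit. Mki67 (−0.85, adjusted p = 0.000112) and Ccnb1 (−0.56, adjusted p = 0.000798) were among the 14. The 4 that rose there were Cdca3 (0.60, adjusted p = 0.00032), Ccnb2 (0.50, adjusted p = 0.00448), Cdca8 (0.33, adjusted p = 0.0206) and Ube2c (0.39, adjusted p = 0.0331), all smaller than the shift of −0.73 that scaling to ribosomal protein genes gave the median of all genes, so that their direction rests on the scaling. The blocked fit called 8 at 2 h (4 lower, 4 higher), beside 20.2% of all genes lower and 13.6% higher, and 11 for the step after 2 h, all lower (30.6%), beside 7.38% lower and 2.67% higher. Of 63 other mitosis genes, 14 were lower and 2 higher at 4 h in the fit with no block, led by Ccnf (−4.03), Kif18a (−3.20) and Fbxo5 (−4.79).

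In the cKO-labelled cultures, 2 of 36 genes were called lower at 4 h against 0 h, beside 18% of all genes called lower and 12.1% higher. Aurka had 43.1, 91.4 and 32.4 CPM at 0 h, 78.8, 53.6 and 14.3 at 2 h and 19.2, 17.02 and 6.01 at 4 h in cultures 1, 2 and 3 (log2 difference −1.98, SE 0.50, adjusted p = 0.00646). Culture 1 was higher at 2 h than at 0 h, where the other 2 fell at each step. Ndc80 had 74.5, 67.4 and 26.5 CPM at 0 h, 71.1, 58.1 and 14.7 at 2 h and 25.9, 20.3 and 8.89 at 4 h (log2 difference −1.61, SE 0.46, adjusted p = 0.0141), a fall in all 3 cultures. Mki67 had 337, 276 and 65.95 CPM at 0 h, 309.96, 219 and 47.6 at 2 h and 266, 169.9 and 39.1 at 4 h, and Cdk1 had 366, 331 and 115 CPM at 0 h, 372, 293 and 105 at 2 h and 347, 295 and 117 at 4 h. Top2a had 479.9, 469 and 163 CPM at 0 h, 818, 438 and 106 at 2 h and 766, 483 and 112 at 4 h, going up in culture 1 and down in culture 3. Ccnb1 had 391, 376 and 118 CPM at 0 h, 491, 344 and 94.6 at 2 h and 377, 295 and 84.6 at 4 h. Plk1 had 7.04, 5.86 and 3.66 CPM at 0 h, 7.45, 8.27 and 3.51 at 2 h and 4.35, 4.99 and 1.86 at 4 h.

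Kif2c had 15.98, 39.2 and 18.2 CPM at 0 h, 90.98, 75.4 and 18.01 at 2 h and 80.5, 59.8 and 18.2 at 4 h in cKO-labelled cultures, higher at 2 h in cultures 1 and 2 and level in culture 3, against 118, 83.2 and 94.4 CPM at 0 h, 147, 119 and 119 at 2 h and 116, 95.4 and 91.97 at 4 h in WT cultures. The WT values at 2 h also lay above those at 0 h (0.38, adjusted p = 0.641). In cKO-labelled cultures its log2 change at 2 h was 1.33 (SE 0.51, adjusted p = 0.102 in the fit with no block), the smallest p of the 36 genes for that step, at which none was called (2.21% of all genes were called higher and 9.85% lower). With culture as a block it was called higher at 2 h (1.06, adjusted p = 0.0280) and DESeq2 called it alone. Ccna2 had 128, 58.03 and 19.04 CPM at 0 h, 52.1, 48.4 and 14.9 at 2 h and 41.1, 32.4 and 12.9 at 4 h, and its log2 change at 2 h was −0.82 (adjusted p = 0.341). Medians over the 36 genes, at 4 h against each culture's own 0 h library, were 0.022, −0.058 and −0.38 in cultures 1, 2 and 3. For the step after 2 h none was called (0.791% of all genes were lower and 0 higher), 3 had an unadjusted p under 0.05, and Aurka (−1.80, adjusted p = 0.116) and Ndc80 (−1.39, adjusted p = 0.228) came first. With culture as a block, 16 members were called at 4 h, 11 lower (30.6%) and 5 higher (13.9%), beside 23.1% of all genes lower and 21.1% higher. That fit called 6 at 2 h (3 each way), beside 15.8% lower and 9.79% higher, and 4 for the step after 2 h, all lower (11.1%), beside 3.08% lower and 0.371% higher. Without culture 3, 10 were called at 4 h in the fit with no block, 7 lower and 3 higher, and without culture 2 none was. The share of all genes is not given for these fits or for the single-library omissions that follow. Leaving out only the 0 h library of culture 1 or 3 left 1 and 6 called, all lower, and leaving out that of culture 2 left 3, 2 lower and Kif2c higher. Leaving out the 4 h library of culture 1 left 3, all lower, and that of culture 3 left 3, 1 lower and 2 higher.

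**Figure D4:**
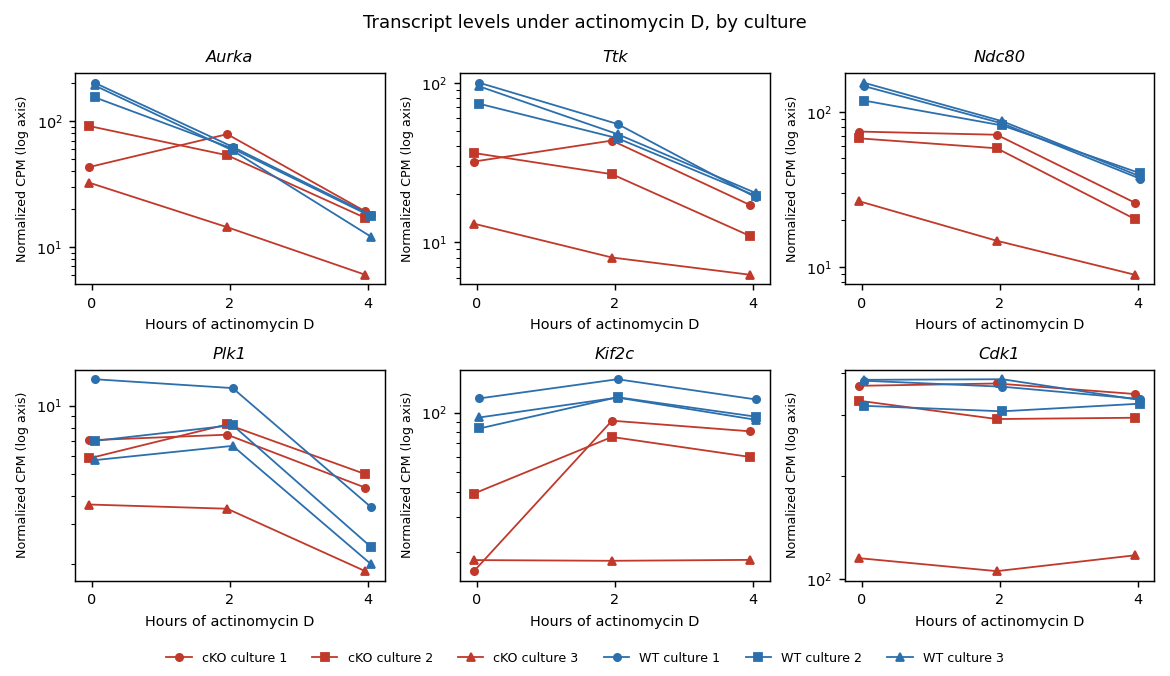
Normalized CPM (log axes, each with its own range) against hours of actinomycin D for 6 genes, with a line for each culture labelled cKO (red) or WT (blue). Aurka, Ttk and Ndc80 are lower at 4 h than at 0 h in all 6 cultures, with Ttk not called in cKO-labelled cultures (adjusted p = 0.0504, edgeR). Aurka and Ttk are higher at 2 h than at 0 h in cKO-labelled culture 1. Plk1 is lower at 4 h than at 2 h in all 6 cultures, and Kif2c is higher at 2 h than at 0 h in each culture except cKO-labelled culture 3.

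The slope comparison asked whether decay differed between genotypes, as the cKO minus WT difference in log2 change per hour. None of the 36 genes was called by edgeR with no block, and of all 14029 genes 1 was (0.00713%, higher). With culture as a block, none of the 36 was called either, beside 0.463% of all genes higher and 0.171% lower. In the fit with no block, no member had an unadjusted p under 0.05, and DESeq2 called none. The difference was positive for 31 of 36 genes, with a median of 0.045 per hour (all genes 0.017). Aurka came first with 0.39 per hour (SE 0.19, adjusted p = 0.604) and Kif20a next with 0.33 (SE 0.20, adjusted p = 0.717). Kif20a had 66.9, 129 and 44.5 CPM at 0 h, 176, 118 and 22.5 at 2 h and 110.4, 91.00 and 22.8 at 4 h in cKO-labelled cultures, against 286, 244 and 272 CPM at 0 h, 196, 191 and 202 at 2 h and 107, 92.2 and 100.4 at 4 h in WT cultures. Both genes began lower in the cKO-labelled cultures and had values close to WT at 4 h in cultures 1 and 2.

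The m6A pull-down asked which transcripts were enriched over input with an m6A antibody in WT cells. Of the 36 genes, 9 were lower in the pull-down and none was higher in the fit with no block, and DESeq2 called 9 lower and 1 (Cenpf) higher. With the replicate number as a block, 16 were lower (44.4%, all genes 20.7%) and 5 higher (13.9%, all genes 17.2%). Those higher were Cenpf, Mki67, Cenpe, Kif2c and Tpx2. Each of the 6 libraries correlated best with its own number, but the lowest same-number correlation was 0.071. In the fit with no block, 14.3% of all 14167 genes were called lower and 6.06% higher, so the members' 25% called lower stands beside a background of 14.3%. The median was −0.11 (all genes 0.0096) with TMM scaling, and 0.11 with library size alone, which moved the median of all genes to 0.22 and split the members' calls into 7 higher and 7 lower. Cenpa had 46.5, 38.1 and 45.4 CPM in pull-downs 1, 2 and 3, against 102, 76.7 and 87.3 CPM in inputs (log2 difference −1.03, SE 0.12, adjusted p = 0.000311). Ube2c had 46.9, 40.3 and 46.3 CPM in pull-downs, against 102, 71.4 and 91.4 CPM in inputs (log2 difference −0.99, SE 0.13, adjusted p = 0.000649). Both lay wholly below the inputs. Cdc20 had 45.2, 42.01 and 41.5 CPM in pull-downs and 76.7, 64.6 and 65.6 CPM in inputs (log2 difference −0.68, SE 0.091, adjusted p = 0.000705). Cdca8, the passenger complex subunit borealin, had 79.5, 68.9 and 67.1 CPM in pull-downs and 118, 96.6 and 111 CPM in inputs (log2 difference −0.60, SE 0.100, adjusted p = 0.00268). The groups were apart for all 9 called genes (25%), beside 21.1% of all genes lower without overlap.

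The other called genes were the entry kinase Cdk1 with Ccnb2 and Ccnb1, Nusap1, a microtubule-bundling protein, and Cdca3. Cdk1 had 185, 153 and 178 CPM in pull-downs and 288, 232 and 255 CPM in inputs (log2 difference −0.59, SE 0.10, adjusted p = 0.00345). Ccnb1 had 351, 312 and 328 CPM in pull-downs and 478, 395 and 435 CPM in inputs (log2 difference −0.40, SE 0.085, adjusted p = 0.00998). All 3 protein degradation genes and 3 of 4 genes of the CDK1 group were thus lower. In the fit with no block, the most positive values belonged to Cenpf (0.35, adjusted p = 0.116), Cenpe (0.26, adjusted p = 0.277) and Mki67 (0.26, adjusted p = 0.192). Mki67 had 245, 175 and 190.2 CPM in pull-downs and 181, 153 and 177 CPM in inputs, and Top2a 1585, 1341 and 1422 in pull-downs and 1577, 1297 and 1403 in inputs. Aurka, the member with the largest fall in WT cells, had 122, 101 and 115 CPM in pull-downs and 139.9, 113 and 120.2 CPM in inputs (log2 difference −0.14, SE 0.10, adjusted p = 0.39), and Plk1 had 37.9, 40.2 and 44.7 CPM in pull-downs and 55.1, 43.9 and 52.3 CPM in inputs (log2 difference −0.30, SE 0.11, adjusted p = 0.0851). Of the 9 genes lower in the pull-down and the 7 that fell in WT cells, 1 was shared (Cdc20, 11.1% of the 9 and 14.3% of the 7).

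Transcript length ran with these values. Length was read from the ratio of counts to TPM in the inputs and set relative to the median gene with at least 10 counts in each input. The 9 called genes had a median relative length of 0.55 (0.32 to 1.01), against 1.25 (0.54 to 3.80) for the other 27. Across the 36 genes the Spearman correlation of relative length with the log2 enrichment was 0.74, and across 12943 tested genes it was 0.42. These are descriptions, since all points come from the same 6 libraries. Up to the length of the median gene, 8 of 17 mitosis genes (47.1%) and 26.7% of all 6469 genes were called lower, with medians of −0.35 and −0.17. Over that length, 1 of 19 mitosis genes (5.26%) and 4.46% of 6474 genes were called lower, with medians of 0.037 and 0.11. The part of length in the calls was not tested.

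**Figure D5:**
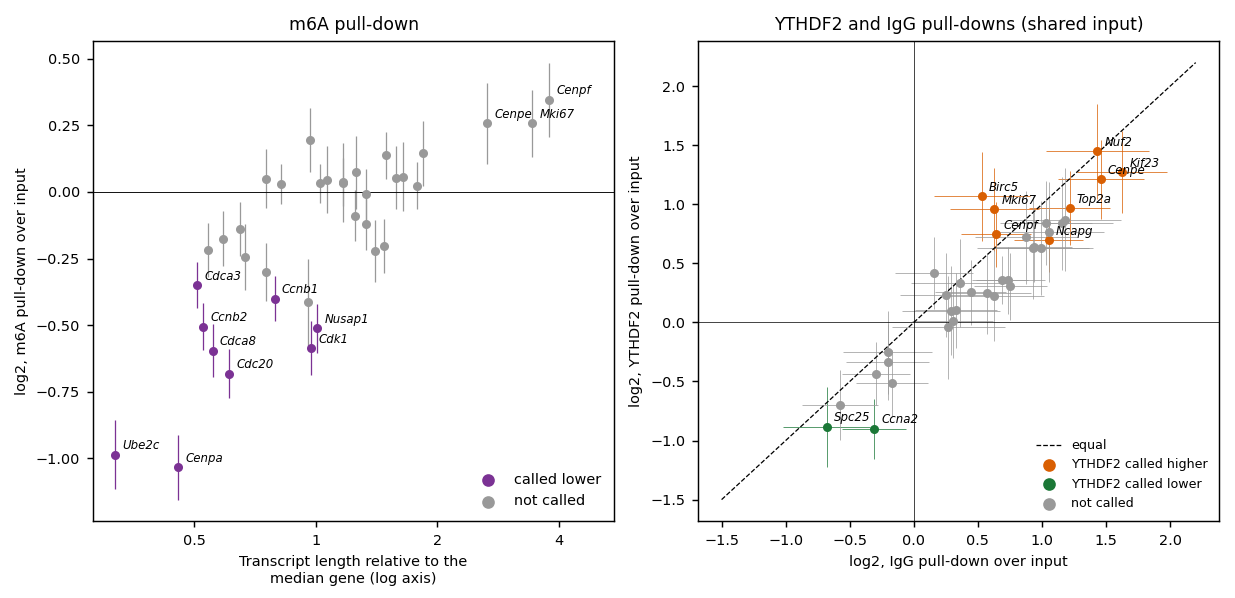
Left, log2 of m6A pull-down over input (± SE) against transcript length relative to the median gene (log axis), where the 9 genes called lower span relative lengths of 0.32 to 1.01. Right, log2 of YTHDF2 pull-down over input against log2 of IgG pull-down over the same input (± SE), where most of the 36 genes lie at or under the dashed line of equal values.

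The YTHDF2 pull-down asked which transcripts the protein held in WT cells. Against input, with no block, 8 of 36 genes were higher and 2 lower, beside 30.7% called higher and 17.5% lower over all 14255 genes. The 22.2% higher and 5.56% lower lie under the background of that fit only. With the replicate number as a block, 50% were higher, beside 38.9% of all genes, and 13.9% lower, beside 24.7%. With no block the median was 0.36, beside 0.23 over all genes. Kif23 had 68.4, 104 and 169.8 CPM in YTHDF2 pull-downs 1, 2 and 3, against 35.5, 44.2 and 62.2 CPM in inputs (log2 difference 1.27, SE 0.35, adjusted p = 0.0103). Cenpe had 66.3, 116 and 175 CPM in pull-downs and 45.1, 50.3 and 58.9 CPM in inputs (log2 difference 1.21, SE 0.33, adjusted p = 0.0106). Nuf2, the partner of Ndc80, had 76.4, 142 and 201 CPM in pull-downs and 31.03, 49.6 and 73.4 CPM in inputs (log2 difference 1.45, SE 0.40, adjusted p = 0.011). The pull-downs lay above the inputs for these 3, and each pull-down exceeded the input of its own number for all 3. Top2a, Birc5, Mki67, Cenpf and Ncapg were also higher (0.97, 1.07, 0.96, 0.75 and 0.70). Birc5, the survivin of the passenger complex, had 94.97, 154 and 234 CPM in pull-downs and 52.1, 66.04 and 112 CPM in inputs. Ccna2 was lower, with 12.8, 15.8 and 19.4 CPM in pull-downs and 22.9, 32.9 and 33.9 CPM in inputs (log2 difference −0.90, SE 0.25, adjusted p = 0.0123), and Spc25, of the same kinetochore complex as Ndc80, was lower as well (−0.88, adjusted p = 0.0471). With size factors of the RLE kind 3 genes were higher and 3 lower, and the median was 0.18.

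The IgG pull-down, the control for binding without the YTHDF2 antibody, shares the inputs with the comparison above, so the lists are given side by side only. Of the 36 genes, 9 were higher and none lower, beside 20.2% of all genes called higher and 17% lower. The median was 0.63, beside 0.00019 over all genes. Kif23 had 95.9, 139 and 202 CPM in IgG pull-downs (log2 difference 1.63, SE 0.35, adjusted p = 0.0038 over the inputs above) and Cenpe had 93.6, 132 and 198 CPM (log2 difference 1.46, SE 0.34, adjusted p = 0.00533). Ncapg had 49.4, 77.9 and 89.1 CPM in IgG pull-downs and 27.9, 32.7 and 43.8 CPM in inputs (log2 difference 1.05, SE 0.27, adjusted p = 0.00922). Top2a had 669, 1016 and 1313 CPM in IgG pull-downs and 346, 383 and 562 CPM in inputs (log2 difference 1.22, SE 0.32, adjusted p = 0.0103), with 528, 825 and 1166 CPM in YTHDF2 pull-downs. IgG lay above input without overlap for these 4 genes.

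Set directly against IgG, none of the 36 genes was called in the YTHDF2 pull-down by edgeR, and 1 had an unadjusted p under 0.05. DESeq2 called 1. Over all genes 14.3% were called higher and 0.33% lower. The log2 difference was negative for 31 of 36 genes, with a median of −0.25 (all genes −0.077). Ccna2 had 12.8, 15.8 and 19.4 CPM in YTHDF2 pull-downs, against 16.1, 26.8 and 29.5 CPM with IgG (log2 difference −0.59, SE 0.25, adjusted p = 0.168). Kif11, the motor that pushes spindle poles apart, had 43.4, 31.9 and 50.1 CPM with YTHDF2 antibody and 52.4, 46.3 and 59.02 CPM with IgG (log2 difference −0.33, SE 0.20, adjusted p = 0.335). Birc5 had the most positive value (0.54, adjusted p = 0.395), with 94.97, 154 and 234 CPM in YTHDF2 pull-downs, against 73.3, 98.00 and 162 CPM with IgG. It was higher in each of the 3 numbered pairs. Mki67 had 70.1, 117 and 183 CPM in YTHDF2 pull-downs and 69.3, 90.9 and 135 CPM with IgG. Cdk1 had 82.5, 93.4 and 127 CPM in YTHDF2 pull-downs, 92.2, 103 and 138 CPM with IgG and 99.99, 115 and 195 CPM in inputs. Ccnb1 had 107, 161 and 219 CPM in YTHDF2 pull-downs, 142, 205 and 250.1 CPM with IgG and 105, 152 and 226 CPM in inputs. With YTHDF2 antibody Cdk1 thus lay under its input in all 3 replicates, and Ccnb1 under its input in replicate 3 but above it in replicates 1 and 2. Aurka had 47.8, 72.4 and 99.96 CPM in YTHDF2 pull-downs, 45.5, 58.2 and 79.6 CPM with IgG and 39.2, 50.2 and 75.2 CPM in inputs. Plk1 had 14.8, 18.8 and 21.2 CPM in YTHDF2 pull-downs, 15.6, 33.9 and 25.2 CPM with IgG and 10.7, 17.2 and 16.7 CPM in inputs.

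Replicate numbers pair the libraries of the YTHDF2 series, so the fit with the number as a block is given beside these counts. Blocked, 23 members were called for YTHDF2 over input, 18 higher (50%) and 5 lower (13.9%), beside 38.9% of all genes higher and 24.7% lower. For IgG over input 26 were called, 24 higher (66.7%) and 2 lower (5.56%), beside 27.8% higher and 27.3% lower. For YTHDF2 over IgG 11 were called, beside 22% of all genes higher and 8.9% lower. Of these 11, 1 was higher (2.78%; Birc5, 0.52, adjusted p = 0.00174) and 10 lower (27.8%), among them Ccna2 (−0.57, adjusted p = 0.00397). Leaving out 1 library at a time gave 3 to 13 called members for YTHDF2 over input. The share of all genes called in each of these fits is not given. Without YTHDF2 pull-down 3 none was higher and 3 were lower. Without pull-down 2 or input 2 there were 4 called, 3 of them higher, without input 1 there were 6, without input 3 there were 11, and without pull-down 1 there were 13. For IgG over input the count was 4 without input 1, input 2 or IgG pull-down 3, 12 without input 3 and 17 without IgG pull-down 1. With the names taken from the sample titles, every sign of YTHDF2 over input turns round.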

How the data were processed

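The authors deposited gene counts and TPM per library, per the file headers. For the reads, the submitters' processing notes name bcl2fastq 2.17.1.14, Trimmomatic 0.32, STAR 2.5.2a and the mouse build GRCm38; no source used here names the counter or annotation. Counts were tested with edgeR 4.0.16 (quasi-likelihood, TMM, filterByExpr; R 4.3.3), each assay fitted on its own, with Benjamini-Hochberg adjustment over all genes tested and a threshold of 0.05. DESeq2 1.42.0 was an alternative. CPM are TMM-scaled counts, deposited TPM served for levels between genes and for relative length, and values per culture used log2(CPM + 0.5). The edgeR fit with no block was tested on simulated counts, for a single comparison in each assay. The simulated libraries were independent of each other, so paired libraries, the slope, the blocked fits and DESeq2 were not covered. Drawing and summaries used Python 3.11.15, pandas 2.3.3 and matplotlib 3.10.9. Same-numbered libraries deviated together across times within a genotype (lowest correlation 0.126) and across arms of the YTHDF2 series (lowest 0.353), so these were taken as paired. The 36 members and the lists were chosen with earlier results of these data known. Values in every library are given for Mki67, Top2a, Cdk1, Ccnb1, Aurka and Plk1. In each comparison they are also given for the 4 members with the smallest p (all called ones where fewer than 4 are called, and at least 2). Genes of other lists, where named for a call, are the 3 with the smallest p among those called. Outside that rule, Ythdf2 and Cdkn1a were named, as were Msi1 and Tbx18, the lowest markers of their lists at 0 h. Alternatives were other scalings, no low-count filter, DESeq2, a replicate block, libraries or cultures left out and, for the YTHDF2 series, the names in the titles.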

Additional observations from a re-analysis of the deposited data

How the results depend on the processing

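Counts here are members called in either direction. Shares of all genes stand here for the blocked genotype and m6A fits only. The other counts in this section have no background beside them and show only how far the calls move. For the genotype difference at 0 h, with 5 called, library size alone gave 8, no filter 14, DESeq2 11, a replicate block 19 and scaling to ribosomal protein genes 18. All 19 in the block were lower (52.8%), beside 13.8% of all genes lower and 10.1% higher. At 2 h, with 0 called, no filter gave 7, DESeq2 4, the block 15 and ribosomal scaling 7, and at 4 h these gave 6, 2, 9 and 4. The block called 41.7% lower at 2 h, beside 12% of all genes lower and 10.7% higher. At 4 h it called 25% lower, beside 12.3% of all genes lower and 13.2% higher. The numbers do not pair the genotypes: the lowest same-number correlation was −0.085, and a library correlated best with its own number in 5 of 18 matches. In the m6A series the lowest was 0.071, and each of 6 libraries correlated best with its own number. With a block 21 were called there, 16 lower (44.4%, all genes 20.7%) and 5 higher (13.9%, all genes 17.2%; Cenpf, Mki67, Cenpe, Kif2c and Tpx2), and Plk1, Bub1, Mad2l1 and Ect2 were among the lower. With library size 14 were called, with a median of 0.11. In WT cells at 2 h the block gave 8 and ribosomal scaling 4, with medians of 0.081 for RLE and DESeq2, 0.084 for no filter, −0.12 for library size and −0.38 for ribosomal scaling. For WT after 2 h, library size gave 3, no filter 2, DESeq2 2, the block 11 and ribosomal scaling 5, with medians of −0.41 for library size and −0.55 for ribosomal scaling. For WT at 4 h the block gave 18 and ribosomal scaling 14, with medians of −0.11 for RLE and DESeq2, −0.52 for library size and −0.91 for ribosomal scaling, which moved the median of all genes to −0.73. In cKO-labelled cells at 2 h, no filter gave 1, DESeq2 1 and the block 6, and the ribosomal median was −0.26. After 2 h, library size, no filter and DESeq2 gave 1 each, the block 4 and ribosomal scaling 3, with medians of −0.31 for library size and −0.50 for ribosomal scaling. At 4 h, library size, no filter and DESeq2 gave 4 each, the block 16 and ribosomal scaling 10, with medians of −0.29 for library size and −0.76 for ribosomal scaling.

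For YTHDF2 over input, RLE gave 6 and the block 23, with medians of 0.18 for RLE and DESeq2 and −0.36 with the titles' names. For YTHDF2 over IgG, DESeq2 gave 1, the block 11 and the titles' names 9, with medians of −0.39 for RLE and DESeq2 and −0.63 for the titles' names. For IgG over input, library size and no filter gave 14 each, the block 26 and the titles' names 0, with a median of 0.25 for the titles' names. By construction those names turned YTHDF2 over input round, to −0.96 for Mki67, −0.97 for Top2a, −1.27 for Kif23, −1.21 for Cenpe, −1.45 for Nuf2, −0.75 for Cenpf, −1.07 for Birc5, −0.70 for Ncapg, 0.90 for Ccna2 and 0.88 for Spc25, and moved Nuf2 to −0.016 for IgG over input. The cause of the other moves was not tested.

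With 1 library or culture left out, counts and medians ran from 0 to 20 and −1.29 to −0.77 for the genotypes at 0 h, 0 to 18 and −1.31 to −0.47 at 2 h, and 0 to 14 and −1.19 to −0.34 at 4 h. In WT they were 0 to 0 and −0.059 to 0.12 at 2 h, 0 to 0 and −0.28 to −0.15 after 2 h, and 3 to 4 and −0.26 to −0.028 at 4 h. In cKO-labelled cells they were 0 to 3 and −0.39 to 0.51 at 2 h, 0 to 3 and −0.59 to 0.26 after 2 h, and 0 to 10 and −0.44 to 0.36 at 4 h. The slope had 0 to 0 and −0.049 to 0.13, m6A 8 to 12 and −0.18 to −0.028, YTHDF2 over input 3 to 13 and 0.16 to 0.59, YTHDF2 over IgG 0 to 1 and −0.55 to 0.018, and IgG over input 4 to 17 and 0.31 to 0.83. The single-library omissions and the per-member fit without cKO-labelled culture 3 were chosen after seeing the data. Over all named genes and alternatives, 1718 values kept direction and call, 164 gained a call, 157 lost one, 11 called values changed sign, and 124 values that changed sign were not called in the fit reported.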
